A study of Mus musculus with 5 samples.

Results

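Naive and recirculating T cells share a set of transcripts for entering, surviving in and leaving lymph nodes. The 8 genes described here are Ccr7, S1pr1, Klf2, Il7r, Dapl1, Igfbp4, Satb1 and Actn1, chosen by symbol from the 31053 genes of the matrices. All 8 were found in the lymph node matrix and in both heart matrices, and each passed the filter on low counts in the 4 tests across genes.

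Gene expression was measured by droplet single-cell RNA sequencing in C57BL/6 mice with no treatment other than aging. The lymph node library held CD44-high T cells sorted from the mediastinal nodes, which drain the heart. It pooled mice of 2, 6, 12 and 18 months, marked with 8 hashtag antibodies, and a second library from the same cells gave their T cell receptors. The heart gave 1 library of non-cardiomyocytes at 2 months and 1 at 18 months. Per the labels the lymph node library was a 5′ library and the heart libraries were 3′ libraries, so levels were not compared between tissues. The table that gives the age of each hashtag was not used here. Hashtags therefore served as blocks in the tests and were never read as ages, and the labels do not say how many mice carried each. CD44 is high on antigen-experienced T cells. Cd44 was read at 101 CPM (UMIs scaled to a common total over the same cells, as counts per 1e6) in CD4 cells and 59.1 CPM in CD8 cells.

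A naive T cell enters a lymph node from the blood through CCR7, which senses chemokines of the node, and leaves it again along a gradient of sphingosine 1-phosphate sensed by S1PR1. KLF2 is a transcription factor that keeps quiescent T cells in this circuit and switches on S1pr1, and interleukin 7 sustains them through the receptor chain IL7R. Strong antigen stimulation lowers these transcripts, and memory cells can regain several of them.

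Ccr7 (ENSMUSG00000037944, chr11:99144196-99155077, minus strand) encodes the homing receptor. S1pr1 (ENSMUSG00000045092, chr3:115710433-115715072, minus strand) encodes the egress receptor. Klf2 lies at chr8:72319033-72321656 on the plus strand, and Il7r at chr15:9505788-9530176 on the minus strand. Satb1 (chr17:51736187-51833290, minus strand) encodes a chromatin organiser of the T lineage. Actn1 (chr12:80167547-80260371, minus strand) encodes an alpha-actinin that crosslinks actin filaments. Igfbp4 (chr11:99041244-99054392, plus strand) encodes a secreted binding protein of insulin-like growth factors. Dapl1 (chr2:59484653-59505020, plus strand) encodes a small protein related to death-associated protein. Coordinates are those of GENCODE vM21 on GRCm38, where all 8 are protein-coding genes, and the matrix counts UMIs over the whole gene.

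A clonotype is the set of cells that carry the same productive receptor alpha and beta chains within a hashtag. Clones with contrasting levels of the 8 genes are identified by the CDR3 nucleotide sequence of their beta chain, 5′ to 3′. The capitals mark the bases left after 12 at each end, and every cell of each clone carried the sequence. The first is the largest CD4 clone (TRBV23, TRBJ2-3), and the next are the 2 largest CD8 clones (TRBV15, TRBJ2-7 and TRBV12-2, TRBJ1-4), all in hashtag 7. The last is the fifth largest CD8 clone (TRBV19), in hashtag 8, which kept the highest Dapl1 level of the 6 largest CD8 clones.
CD4 clone, TRBV23: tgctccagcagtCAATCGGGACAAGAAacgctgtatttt
CD8 clone, TRBV15: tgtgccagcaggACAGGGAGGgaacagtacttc
CD8 clone, TRBV12-2: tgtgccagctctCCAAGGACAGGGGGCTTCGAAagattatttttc
CD8 clone, TRBV19: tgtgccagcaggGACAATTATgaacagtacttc

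Dapl1 and Igfbp4 had the largest differences between clonotype classes, and their start regions are shown for that reason. RefSeq on GRCm38.p6 gave an entry for 6 of the 8 genes. The sequences are the 250 bases before each start, in lower case, with the FOXO motif GTAAACA in capitals where it occurs. The Dapl1 region is chr2:59484403-59484652 on the plus strand.
Dapl1: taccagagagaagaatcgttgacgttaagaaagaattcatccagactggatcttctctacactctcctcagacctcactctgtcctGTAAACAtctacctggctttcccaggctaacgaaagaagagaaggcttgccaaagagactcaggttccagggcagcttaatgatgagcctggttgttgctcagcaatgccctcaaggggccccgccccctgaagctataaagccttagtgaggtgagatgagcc

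The Igfbp4 region is chr11:99040994-99041243 on the plus strand.
Igfbp4: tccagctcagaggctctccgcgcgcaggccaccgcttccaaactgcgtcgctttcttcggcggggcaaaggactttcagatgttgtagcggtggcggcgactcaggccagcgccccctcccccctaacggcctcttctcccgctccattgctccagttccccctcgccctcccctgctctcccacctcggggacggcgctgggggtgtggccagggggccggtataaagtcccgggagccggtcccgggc

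In the Dapl1 region GTAAACA began 164 bases before the start. Searched on both strands, that motif was present in 3.17% of 32851 regions of the same length. The Igfbp4 region held neither GTAAACA nor the motifs CCACCC (KLF, in 28.1% of regions), CTTTGAT (TCF and LEF, 3.21%) and TTCNNNGAA (STAT5, 7.02%). Among the 10 regions of the 6 genes, several of them alternative starts of Satb1, these motifs were found in 1, 4, 0 and 1 respectively, with GTAAACA first. The region of Klf2 and 3 starts of Satb1 held CCACCC, and the region of Il7r held TTCNNNGAA. Each match is a description of letters only.

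Of 13016 lymph node barcodes, 8955 passed the filters with a single hashtag, and 7248 of them were called T cells after 747 B cells were left out. The T cells had a median of 3377 UMIs, and the hashtags held 559 to 1553 T cells. Lineage was read from Cd4, Cd8a and Cd8b1 UMIs, which gave 1871 CD4 and 2996 CD8 cells, while 2096 cells had UMIs of neither. Both chains of the receptor were known for 5053 T cells. Lymph node and heart libraries shared 7 barcodes at 2 months and 0 at 18 months, and the heart libraries shared 42.

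In the lymph node, the 8 genes were present in every hashtag of both lineages, and most were higher in CD8 than in CD4 cells. Klf2 was the most abundant: its level ran from 610 CPM through a median of 695 to 961 CPM over the 8 hashtags in CD8 cells, against 288, 410 and 903 CPM in CD4 cells. Il7r ran from 265 through 463 to 862 CPM in CD8 cells and from 148 through 229 to 590 CPM in CD4 cells. Both ranges overlapped, yet CD8 cells were higher within each of the 8 hashtags for both genes. Hashtag 7 was the highest of the 8 for Klf2 and Il7r in both lineages.

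Dapl1 separated the lineages most. It ran from 65.5 through 198 to 280 CPM in CD8 cells and from 7.99 through 47.6 to 80.4 CPM in CD4 cells, and CD8 cells were higher in 8 of 8 hashtags. Satb1 was likewise higher in 8 of 8, with 101, 152 and 181 CPM (lowest, median, highest) in CD8 cells and 19.2, 40.6 and 156 CPM in CD4 cells. Its CD4 range was wide, since hashtag 1 alone reached the CD8 median.

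The receptors for entry and exit differed less. Ccr7 was 126, 233 and 272 CPM in CD8 cells and 65.2, 163 and 334 CPM in CD4 cells, with CD8 higher in 7 of 8 hashtags. S1pr1 was 108, 130 and 161 CPM in CD8 cells and 75.9, 97.3 and 198 CPM in CD4 cells, with CD8 higher in 6 of 8. Actn1 was 48.5, 93.2 and 140 CPM against 26.6, 70.3 and 153 CPM, with CD8 higher in 5 of 8. Igfbp4 went the other way in 5 of 8 hashtags, at 12.9, 48.8 and 99.6 CPM in CD8 cells and 8.92, 72.2 and 136 CPM in CD4 cells.

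Across all genes, edgeR's quasi-likelihood test with hashtag as a block called 34.2% of 8518 genes between the lineages, 17.6% higher in CD8 cells and 16.6% lower. Of the 8 genes, 7 were called higher in CD8 cells and 0 lower, and their median log2 fold change was 0.88 beside -0.0003 over all genes. The largest was Dapl1, with a log2 fold change of 2.36 ± 0.15 (SE, adjusted p = 1.32e-08), followed by Satb1 at 1.88 ± 0.23 (adjusted p = 1.18e-05). Il7r differed by 1.17 ± 0.11 and Klf2 by 1.08 ± 0.13, and Ccr7, Actn1 and S1pr1 by 0.68, 0.59 and 0.57. For Igfbp4 the value was -0.13 ± 0.15 (adjusted p = 0.548). On single genes, the exact sign-flip test over the 8 hashtags gave p = 0.007812, the smallest that 8 hashtags allow, for Dapl1, Satb1, Il7r and Klf2, and p = 0.03125 for Ccr7. The same exact test gave p = 0.08594 for S1pr1 and p = 0.0625 for Actn1. All p-values here measure the spread between hashtags of 1 library.

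**Figure D1:**
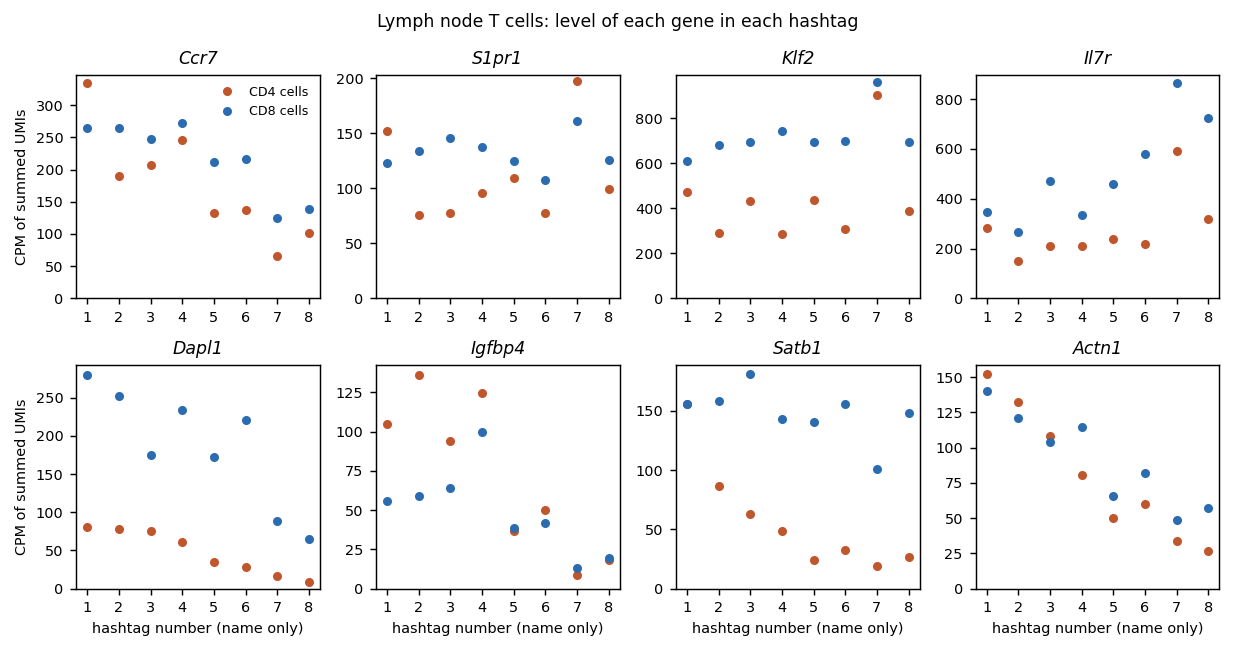
Level of each gene (CPM of summed UMIs, vertical axis) in CD4 cells (orange) and CD8 cells (blue) of each of the 8 hashtags (horizontal axis, a name with no order). Dapl1 and Satb1 points of CD8 cells lie above those of CD4 cells in every hashtag, and hashtag 7 holds the highest Klf2 and Il7r points of both lineages.

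Median shares of cells with at least 1 UMI were higher in CD8 cells for all 8 genes, Igfbp4 included (12.2% against 8.21%), although its median level was lower there. For Klf2 the median share over hashtags was 79.4% of CD8 and 39.3% of CD4 cells, and for Dapl1 it was 27.2% and 6.56%. The lineages differed in depth (median 4722 and 3486 UMIs), so shares were also taken after thinning each cell to 1000 UMIs. Thinned Dapl1 shares ran from 4.32% to 15.2% in CD8 cells and from 0.294% to 7.21% in CD4 cells. As a gauge of free RNA, 483 B cells without CD3 UMIs (median 3878 UMIs) were read the same way. They had Dapl1 in 0.414%, Igfbp4 in 0.207% and Il7r in 4.76% of cells, but Klf2 in 67.7%, Ccr7 in 41.0% and S1pr1 in 28.0%, genes that B cells express themselves.

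Within CD8 cells, 6 of the 8 genes were lower in expanded clonotypes (2 or more cells in the hashtag) than in single clonotypes (1 cell). The comparison used 476 expanded and 1524 single cells of 7 hashtags, since hashtag 2 had under 10 expanded cells. Dapl1 had the largest fall of the 8. Its level ran from 82.6 through 207 to 299 CPM over the hashtags in single clonotypes and from 0 through 53.0 to 82.2 CPM in expanded ones. These ranges nearly met, and the share of all genes with ranges that did not overlap was not counted.

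Ccr7 was 158, 242 and 275 CPM (lowest, median, highest) in single CD8 clonotypes and 45.5, 114 and 247 CPM in expanded ones. It was lower in the expanded cells of all 7 hashtags, by little in hashtags 1 and 3 and by far in hashtags 5, 6 and 7. Il7r was 331, 434 and 849 CPM against 164, 335 and 744 CPM and was also lower in 7 of 7. Actn1 was 67.9, 90.5 and 133 CPM against 14.3, 38.4 and 214 CPM, and hashtags 1 and 3 went up. Satb1 was 140, 153 and 180 CPM against 21.6, 119 and 206 CPM, with hashtag 3 alone going up. Igfbp4 was 15.9, 51.0 and 97.4 CPM against 0, 6.77 and 211 CPM, where the highest expanded value came from 15 cells of hashtag 4.

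Klf2 and S1pr1 had the smallest falls of these genes on the log2 scale and were not called, which does not show them to be unchanged. Klf2 was 595, 679 and 921 CPM in single and 280, 627 and 977 CPM in expanded CD8 cells, with 5 of 7 hashtags lower. S1pr1 was 107, 129 and 146 CPM against 80.9, 117 and 232 CPM, with 4 of 7 lower. These are the egress receptor and the transcription factor that switches it on.

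The quasi-likelihood test called 1.69% of 7164 genes in this CD8 comparison, 0.628% higher and 1.06% lower in expanded clonotypes. Among the 8 genes, 6 were called lower and 0 higher, and the median log2 fold change was -0.90 beside -0.04 over all genes. Dapl1 fell by 1.86 ± 0.21 on the log2 scale (adjusted p = 4.98e-10) and Igfbp4 by 1.47 ± 0.35 (adjusted p = 0.00904). Ccr7 fell by 1.15 ± 0.18 (adjusted p = 8.06e-06), and Actn1 fell by 1.003 ± 0.2225 (adjusted p = 0.00315). Satb1 fell by 0.80 ± 0.19 (adjusted p = 0.00993) and Il7r by 0.53 ± 0.14 (adjusted p = 0.0249). The values for Klf2 (-0.41 ± 0.14, adjusted p = 0.139) and S1pr1 (-0.20 ± 0.17, adjusted p = 0.874) were not called. The exact sign-flip test gave p = 0.01562, the smallest for 7 hashtags, for Dapl1, Ccr7 and Il7r, and p = 0.0625 for Satb1 and Igfbp4. DESeq2 called 3 of the 8, the fit without the hashtag block 2, and cells thinned to 1000 UMIs 1 of the 7 that passed the filter. With expanded set at 3 or more cells, which left 3 hashtags, 0 were called. The B cell transcript Igkc was 30.9 CPM in single and 174 CPM in expanded CD8 cells, while Cd79b was 21.5 and 9.60 CPM and Ighm 217 and 128 CPM, and their part in the result was not tested.

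In CD4 cells the comparison covered 914 single and 288 expanded cells of 6 hashtags (1 and 2 had under 10 expanded cells) and called 2 of the 8 genes. Ccr7 was 99.1, 139 and 266 CPM in single clonotypes and 37.3, 67.4 and 144 CPM in expanded ones, lower in 6 of 6 hashtags. Igfbp4 was 17.6, 54.0 and 147 CPM against 0, 1.62 and 41.3 CPM, also lower in 6 of 6, with 3 hashtags at 0. Dapl1 was 3.24, 35.7 and 86.6 CPM against 0, 1.62 and 82.6 CPM. It was lower in 6 of 6, although hashtag 3 had nearly the same level in both classes.

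Satb1 was 25.8, 34.8 and 63.0 CPM in single CD4 clonotypes and 0, 15.01 and 26.4 CPM in expanded ones, lower in 5 of 6 hashtags. Il7r was 203, 210 and 825 CPM against 88.0, 162 and 300 CPM, where hashtag 7 held the single value of 825 CPM. Klf2 ran from 313 through 414 to 909 CPM and from 25.1 through 325 to 946 CPM. S1pr1 (72.5, 102 and 216 CPM against 25.1, 87.4 and 170 CPM) and Actn1 (17.3, 58.3 and 107 CPM against 28.1, 40.5 and 103 CPM) overlapped between the classes.

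In this CD4 comparison 0.106% of 6631 genes were called, 0.0452% higher and 0.0603% lower, so 7 genes in all. Igfbp4 fell by 3.22 ± 0.52 on the log2 scale (adjusted p = 0.0134) and Ccr7 by 1.09 ± 0.21 (adjusted p = 0.0473). The Igfbp4 value rests on few counts: over all hashtags, expanded CD4 cells held 6 of its UMIs, in 5 of 294 cells. The next values were -2.34 for Dapl1 and -1.83 for Satb1 (both adjusted p = 0.169) and -0.75 for Il7r (adjusted p = 0.256). Klf2, S1pr1 and Actn1 had -0.44, -0.35 and -0.19, with adjusted p of 0.864, 0.940 and 1. The median of the 8 was -0.92 beside -0.02 over all genes. Over the 6 hashtags the exact sign-flip test gave p = 0.03125, the smallest possible, for Ccr7, Igfbp4 and Dapl1. Leaving out hashtag 4 left 0 calls among the 8 genes, and leaving out any other single hashtag (3, 5, 6, 7 or 8) left 1. No call was left without the hashtag block or after thinning to 1000 UMIs, where 4 of the 8 passed the filter. Igkc was 80.2 CPM in single and 265 CPM in expanded CD4 cells, Cd79b 14.4 and 10.8 CPM and Ighm 397 and 299 CPM, and their part in the result was not tested.

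A test of the difference between the CD4 and CD8 effects over the 6 hashtags that both had called none of the 8 genes, and the lowest p of the exact sign-flip test was 0.125, for Actn1, before adjustment over the 8 comparisons and above 0.05 after it. The widest gaps were 1.17 on the log2 scale for Igfbp4, lower in CD4, and 1.03 ± 1.27 (SD) for Actn1, lower in CD8. With 6 pairs the smallest raw p was 0.0312.

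**Figure D2:**
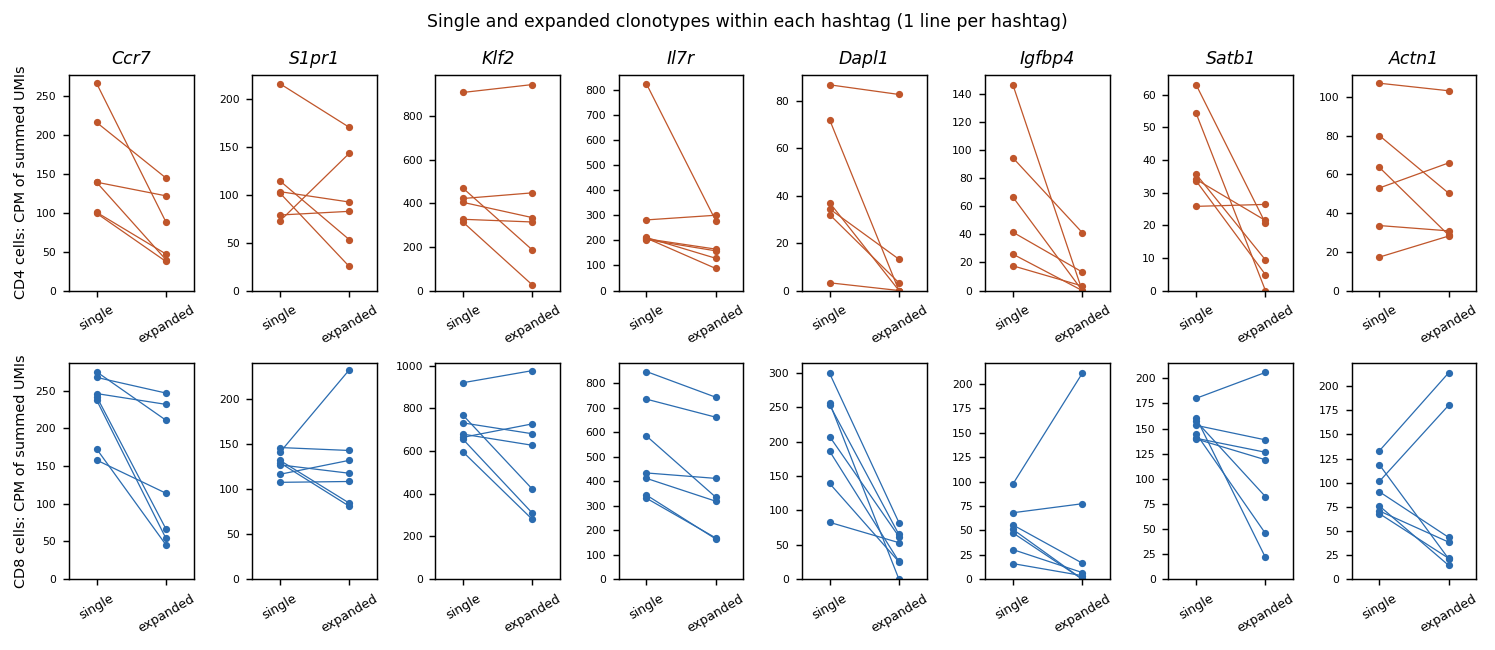
Level of each gene (CPM of summed UMIs, vertical axis) in single and expanded clonotypes, with a line for each hashtag, in CD4 cells (top, 6 hashtags) and CD8 cells (bottom, 7 hashtags). Lines for Dapl1 and Ccr7 go down in every hashtag of both lineages, while those for S1pr1 and Klf2 go both ways.

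By clonotype size, pooled Ccr7, Dapl1 and Igfbp4 were also lower in clonotypes of 2 or more cells, while pooled Klf2 and CD8 Il7r were not, here with no test. In CD4 cells Ccr7 was 186 CPM in clonotypes of 1 cell, 97.0 at 2 cells, 49.4 at 3 to 4 and 34.8 CPM at 5 or more. In CD8 cells it was 237, 91.1, 127 and 64.3 CPM. Dapl1 dropped mainly between 1 and 2 cells in CD8 (219, 45.5, 40.1 and 51.6 CPM), and Igfbp4 was 54.2, 26.0, 9.62 and 3.16 CPM. In CD4 cells of clonotypes of 5 or more, Igfbp4 had no UMI.

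Pooled Klf2 in CD8 cells was 699, 728, 755 and 813 CPM over the same steps, and Il7r was 466, 486, 696 and 643 CPM. These pooled values were higher in larger clonotypes, while the within-hashtag values above were lower. Hashtag 7, with the highest Klf2 and Il7r, held 216 of the 485 expanded CD8 cells, and hashtag 8 held 145. Pooled CD4 Klf2 was 441, 493, 405 and 788 CPM, and pooled CD4 Il7r was 287, 272, 343 and 180 CPM, lowest in the largest clonotypes. Among CD4 cells hashtags 7 and 8 held 126 and 75 of the 294 expanded cells. In both lineages these hashtags also had the lowest levels of Ccr7, Dapl1 and Igfbp4. The part of hashtag in the pooled falls with clonotype size was not tested.

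Per cell, 18.3% of single and 25.7% of expanded CD8 cells had no UMI of any of the 8 genes after thinning to 1000 UMIs, and 17.6% and 10.8% had UMIs of 3 or more. In CD4 cells 45.0% and 45.6% had none, and 7.73% and 3.51% had 3 or more. The thinned share of CD8 cells with Dapl1 was 12.5% in single and 3.38% in expanded clonotypes. Before thinning it was 32.3% and 9.48%, at median depths of 6240 and 4027 UMIs.

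**Figure D3:**
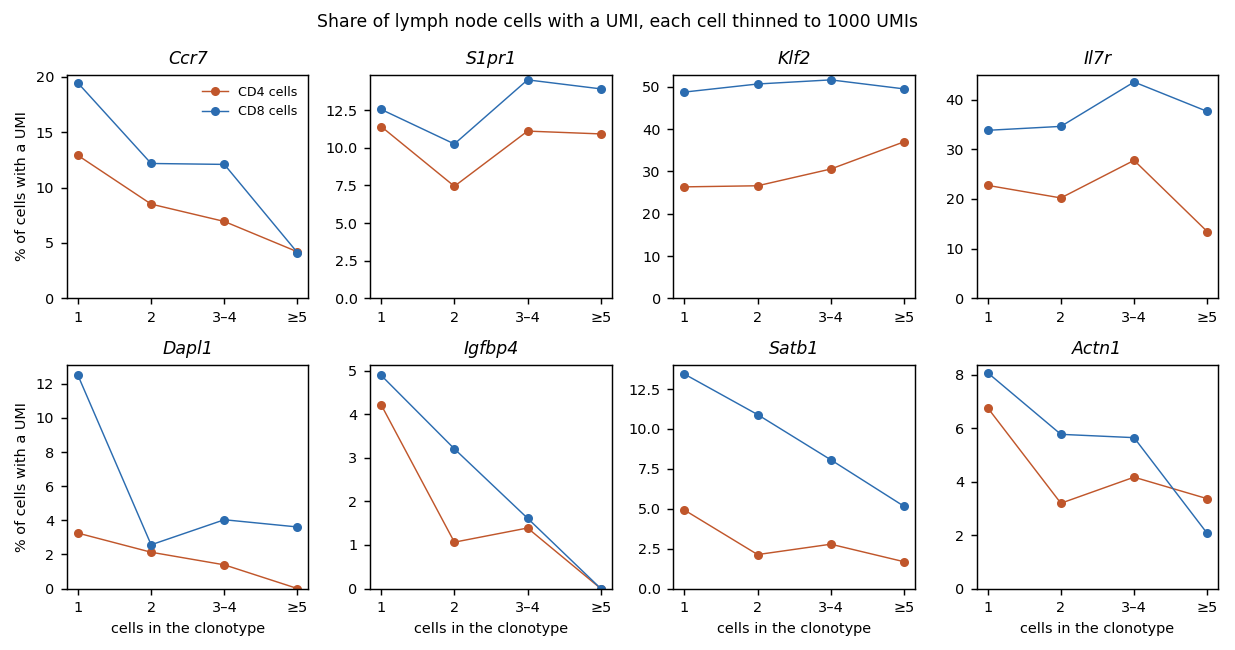
Share of cells with a UMI of each gene after thinning to 1000 UMIs (percent, vertical axis) against the number of cells in the clonotype (1, 2, 3 to 4, 5 or more) for CD4 (orange) and CD8 cells (blue), pooled over hashtags. Ccr7 shares go from 19.5% to 4.12% in CD8 cells, and Klf2 shares in CD8 cells stay between 48.7% and 51.6%.

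Clusters of the lymph node T cells differed widely in the 8 genes. The 8 genes were left out of the clustering, but other genes of the same cells were used, so these levels are descriptions. The cluster led by Ly6c1 and Trat1 (244 cells, 113 of them CD4) had the highest Ccr7 (452 CPM) and Igfbp4 (302 CPM) of the clusters plotted, together with Dapl1 at 239 CPM, and 2.58% of its cells with a receptor were expanded. Among CD8 cells, the cluster led by Tmem108 and Lcn4 had 312 CPM of Ccr7 and 305 CPM of Dapl1. The cluster led by Gzmk, a granzyme of memory-like killer cells, had 64.6 CPM of Ccr7 and 23.4 CPM of Dapl1 but kept 955 CPM of Klf2 and 738 CPM of Il7r. At the low end, the cluster led by Ccl3 (129 cells, 67.0% expanded) had 4.29 CPM of Ccr7 and no UMI of Dapl1 or Igfbp4. The cluster led by Nr4a1 and Egr2, genes induced by receptor signalling, had the lowest S1pr1 (31.0 CPM) and Klf2 (123 CPM). Il7r peaked at 1929 CPM in the cluster led by Tcrg-C1, which encodes a constant region of the gamma receptor chain.

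Expanded and single CD8 cells were spread differently over these clusters. The Gzmk cluster held 12.2% of single and 48.9% of expanded CD8 cells, and the Tmem108 cluster 38.1% and 8.87%. In CD4 cells the cluster led by Sostdc1 and Il21, genes of follicular helper cells, held 13.6% of single and 27.6% of expanded cells, and the Foxp3 cluster 29.6% and 12.2%. The Gzmk cluster held 5.52% of single and 22.4% of expanded CD4 cells. The cluster led by Birc5, a gene of dividing cells, held 3.71% and 10.2%, and the cluster led by Gpm6b and Cd40lg 22.0% and 18.4%. Within the Gzmk cluster, CD8 Ccr7 was 82.6 CPM (95% interval 64.6 to 104) in 211 single cells and 41.5 CPM (29.5 to 56.7) in 237 expanded cells. Klf2 there was 922 CPM (860 to 988) and 1051 CPM (987 to 1119), and Il7r 875 and 755 CPM. Within the Tmem108 cluster Dapl1 was 323 CPM (306 to 339) in single and 166 CPM (119 to 225) in 43 expanded cells, while Ccr7 was 314 and 312 CPM. Il7r went up there, from 386 CPM (369 to 405) to 738 CPM (634 to 853), as did Satb1, from 176 to 280 CPM. These within-cluster values pooled cells over hashtags, and all intervals cover counting error only. Hashtags 7 and 8 held 216 and 145 of the 485 expanded CD8 cells, and the part of hashtag in these values was not tested. The test limited to the Gzmk cluster had 4 hashtags and 3 of the 8 genes past the filter, and called 0 of them, beside 0.138% of 2173 genes. Klf2 and S1pr1, not called in the full comparison either, were among these 3, so most of the genes called there were not tested.

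**Figure D4:**
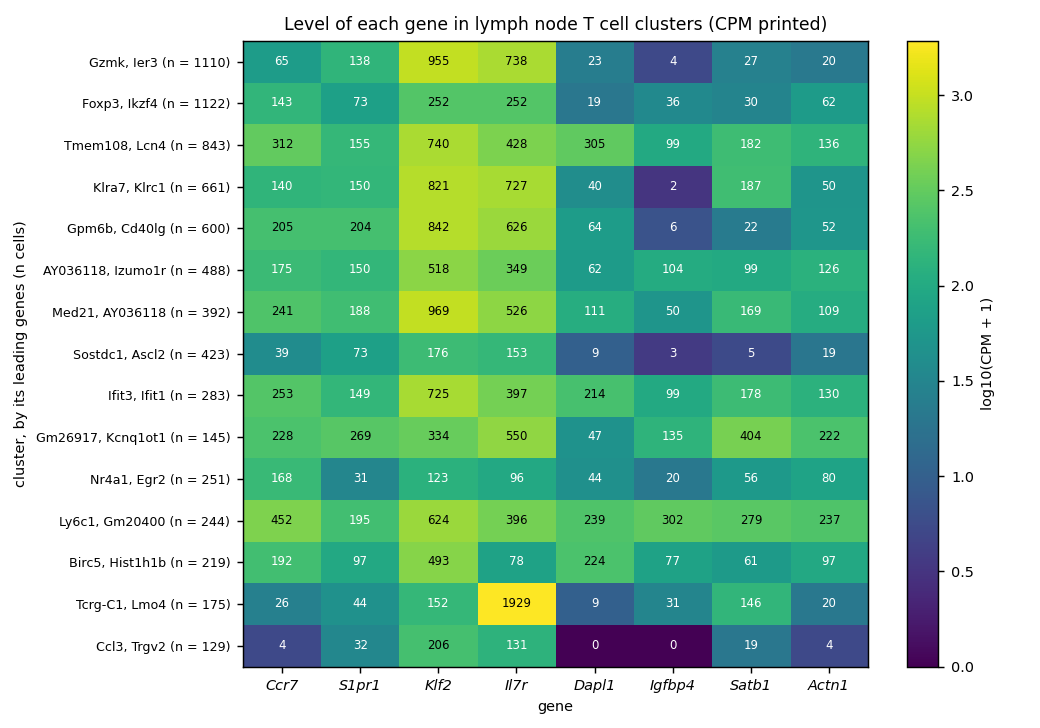
Level of each gene (columns, CPM printed, colour as log10 of CPM + 1) in lymph node T cell clusters (rows, named by their leading genes with their number of cells). Dapl1 runs from 0 in the Ccl3 cluster to 305 CPM in the Tmem108 cluster, and Il7r reaches 1929 CPM in the Tcrg-C1 cluster.

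The large clones showed how far single families departed from each other. The CD4 clone TRBV23 had 27 CD4 cells with 1214 CPM of Klf2 and 250 CPM of S1pr1, but 11.3 CPM of Ccr7, 45.4 CPM of Il7r and no UMI of Dapl1 or Igfbp4. Of these 27 CD4 cells, 14 fell in the cluster of dividing cells, the most in any cluster. The clone held 45 cells of any lineage. The CD8 clone TRBV15 (29 cells) had 1422 CPM of Klf2, 742 CPM of Il7r and 31.4 CPM of Ccr7, and the CD8 clone TRBV12-2 (23 cells) had 925, 1036 and 33.0 CPM. By contrast, the CD8 clone TRBV19 (10 cells, 7 in the Tmem108 cluster) had 216 CPM of Ccr7, 391 CPM of Dapl1 and 202 CPM of Satb1. Dapl1 was seen in 9 of its 10 cells. A second clone with TRBV19 in hashtag 8 (9 CD8 cells, TRAV7N-4) had 159 CPM of Ccr7 and 252 CPM of Satb1 but no UMI of Dapl1. A clone is a family of cells from a single hashtag and gives no replicate of expansion.

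Among CD4 cells, the 376 cells with a UMI of Foxp3, the factor that defines regulatory T cells, had lower levels of 6 of the 8 genes than the 1495 cells without. Cells without a Foxp3 UMI can still express it. Il7r was 112, 168 and 497 CPM (lowest, median, highest over 8 hashtags) with Foxp3 and 158, 253 and 600 CPM without. Klf2 was 160, 286 and 511 CPM against 286, 462 and 946 CPM. Dapl1 was 0, 9.12 and 66.3 CPM against 9.88, 56.3 and 105 CPM, lower in 8 of 8 hashtags, as were Ccr7, Il7r and S1pr1.

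The test called 5.51% of 4829 genes between these cells, 3.40% higher and 2.11% lower with Foxp3. Dapl1 fell by 1.52 ± 0.32 (adjusted p = 0.00538), Actn1 by 0.78 ± 0.21 (adjusted p = 0.027) and Klf2 by 0.68 ± 0.14 (adjusted p = 0.00406) on the log2 scale. S1pr1 fell by 0.68 ± 0.20 (adjusted p = 0.0456), Il7r by 0.64 ± 0.12 (adjusted p = 0.00216) and Ccr7 by 0.54 ± 0.12 (adjusted p = 0.0109). Satb1 (-0.88 ± 0.30, adjusted p = 0.109) and Igfbp4 (-0.45 ± 0.30, adjusted p = 0.541) were not called. Of the 8 genes, DESeq2 called 4 and the fit without the hashtag block 0, leaving out each hashtag gave 4 to 7, and after thinning only Klf2 and Il7r passed the filter and both were called. Expanded CD4 cells had 34.6 CPM of Foxp3 and single ones 139 CPM, a value that moved with the CD4 comparison of clonotypes. Foxp3 itself fell by 1.63 ± 0.28 (adjusted p = 0.0227) in expanded CD4 cells. Without cells with a Foxp3 UMI, the CD4 comparison of clonotypes called 2 of the 8 genes lower, beside 0.0542% of 5536 genes called. The median log2 fold change of the 8 was then -1.04.

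Other genes of the same programmes were read from fixed lists. Over all genes the tests called 0.628% higher and 1.06% lower in expanded CD8 cells, and 0.0452% and 0.0603% in expanded CD4 cells. With Foxp3 the shares were 3.40% higher and 2.11% lower. Of 15 naive and central memory genes, 14 were tested in CD8 clonotypes and 3 were lower in expanded cells, among them the transcription factor Lef1 (-0.82) and Rapgef6 (-0.80), with 0 higher. In CD4 clonotypes 0 of 14 were called. The median of this list was -0.42 in CD8 and -0.22 in CD4 cells. None of the IL-7 and S1P signalling genes was called in either lineage (0 of 15 in CD8 and 0 of 14 in CD4 by edgeR). Effector and memory genes went the other way: 3 of 15 were higher in expanded CD8 cells, with Gzmk at 1.83 and Ccl4 at 1.502, and 2 of 15 in expanded CD4 cells, with Gzmk at 1.48 and Nkg7 at 1.10. The gene Pdcd1 of the follicular helper list rose by 1.45 in CD8 and 0.86 in CD4 cells. With Foxp3, 2 of 13 IL-7 and S1P genes rose, the feedback inhibitors Cish (1.16) and Socs1 (0.51).

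Some genes followed the sum of the 8 genes closely across hashtag and clonotype sums, after each hashtag was centred. In CD4 cells they included Ecm1 (Pearson r = 0.98), Arid4b, Zfand2b and Dusp5 over 12 sums. In CD8 cells they included Slc17a9 (r = 0.97), Vps37b, Pdlim1 and Rps3 over 14 sums. Centring makes both sums of a hashtag mirror each other, so these rest on 6 and 7 pairs from a single library.

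The heart held 277 T cells at 2 months (2.54% of 10910 cells kept) and 308 at 18 months (3.94% of 7816). They summed to 1942253 and 2200774 UMIs. Cd3e was found in 91.7% and 90.9% of them, and none of the 7 T cell markers was at 0. These markers were used to name the clusters, so their levels are no separate check of the label. With 1 library at each age there was no replicate check and no test, and intervals cover counting error only. A gene was called when its level differed at least 1.5-fold and the 95% interval of the log2 ratio (18 over 2 months) left out 0. Summed fibroblast markers were 600 and 132 CPM in these cells at 2 and 18 months, and macrophage markers 78.8 and 199 CPM, with 0 of the markers of either list at 0. Their part in the results below was not tested.

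Dapl1 and Il7r moved in opposite directions in the hearts. Dapl1 was 230 CPM (95% interval 209 to 252) at 2 months and 105 CPM (92.3 to 120) at 18 months, a log2 ratio of -1.13 (-1.36 to -0.89). Il7r was 503 CPM (472 to 535) and 754 CPM (718 to 791), a log2 ratio of 0.59 (0.47 to 0.70) that sat on the line of 1.5-fold. Within the alpha beta T cell cluster alone (266 and 267 cells) Il7r was 464 and 683 CPM, a ratio of 0.56, under that line. TMM factors, free RNA subtraction and a gate on CD3 UMIs in place of clusters each left 1 of the 8 genes called. Of the 8 genes, 1 was called higher and 1 lower, where the same rule called 9.30% of 9174 genes, 6.19% higher and 3.11% lower.

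The other 6 were close between libraries. Ccr7 was 189 CPM (170 to 209) and 234 CPM (214 to 255), a log2 ratio of 0.31 (0.11 to 0.51). Klf2 was 832 and 822 CPM (-0.02, -0.11 to 0.08), and S1pr1 156 and 141 CPM (-0.14, -0.38 to 0.09). Satb1 was 323 and 310 CPM (-0.06), Actn1 91.6 and 79.5 CPM (-0.20), and Igfbp4 75.7 and 70.0 CPM (-0.11). Shares of T cells with a UMI were 28.2% and 16.6% for Dapl1, 41.9% and 39.3% for Ccr7 and 71.1% and 74.4% for Il7r. After thinning to 1000 UMIs, Dapl1 was in 14.96% and 8.25% and Il7r in 32.1% and 42.9%.

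Each heart library held 2 hashtags. Dapl1 was 244 and 172 CPM in hashtags 9 and 10 of the 2-month library and 89.2 and 136 CPM in hashtags 11 and 12 of the 18-month library, so both at 18 months were lower. Hashtag 12 against hashtag 10 gave -0.34 (-0.78 to 0.11), which was not called. Il7r was 487 and 584 CPM at 2 months and 769 and 782 CPM at 18 months. Against hashtag 9 both 18-month hashtags were called, but against hashtag 10 the log2 ratios were 0.40 (hashtag 11) and 0.42 (hashtag 12), and neither was called. Ccr7 was 181 and 226 CPM against 244 and 237 CPM.

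By lineage, Dapl1 was lower at 18 months in CD4, CD8 and other T cells. In CD8 cells (86 and 134) it was 384 and 162 CPM, a log2 ratio of -1.24 (-1.53 to -0.96). In CD4 cells (85 and 61) it was 183 and 57.7 CPM, a ratio of -1.67 (-2.39 to -1.01). CD4 cells also had higher Il7r, at 308 and 715 CPM (1.22, 0.94 to 1.49), and lower Igfbp4, at 118 and 60.2 CPM (-0.97, -1.70 to -0.28). Ccr7 was 316 and 270 CPM in CD8 cells and 161 and 211 CPM in CD4 cells, with no call in either. In the remaining T cells, with UMIs of neither coreceptor or of both (106 and 113), Ccr7 was 80.8 and 199 CPM, a ratio of 1.30 (0.84 to 1.77). These differences between lineages were not tested.

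The gamma delta cluster (11 and 41 cells) stood apart from the alpha beta cells. It had Il7r at 1452 and 1237 CPM and no UMI of Dapl1, Igfbp4 or Actn1, which allows up to 48.3 and 13.2 CPM (95% limits). Its Ccr7 rested on 0 and 3 UMIs, and its Klf2 was 78.5 and 324 CPM. It held more of the T cells at 18 months than at 2 months.

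Cells with Xist UMIs and cells with UMIs of Y-linked genes were present in every heart hashtag, so both libraries appeared to hold cells of female and male mice. In hashtag 9, 7.94% of T cells had Xist and no Y-linked UMI and 60.7% the reverse. In hashtag 10 both shares were 32.8%. The part of free RNA and of hashtag errors in these shares was not tested. Cells with Xist and no Y-linked UMI made up 13.4% of T cells at 2 months and 36.4% at 18 months, and cells with Y-linked UMIs and no Xist 54.2% and 38.3%. The 8 genes were read in each, a split chosen after seeing the data. In the cells with Xist (37 and 112), Dapl1 was 330 and 32.5 CPM (-3.34, -4.06 to -2.69), Ccr7 379 and 118 CPM (-1.68), Actn1 153 and 39.3 CPM (-1.96) and Klf2 952 and 599 CPM (-0.67). In the cells with Y-linked UMIs (150 and 118), Dapl1 was 160 and 160 CPM (0.0002, -0.33 to 0.33), Ccr7 144 and 282 CPM (0.97), Actn1 80.0 and 118 CPM (0.55) and Klf2 768 and 944 CPM (0.30). Dapl1 was thus lower at 18 months in the cells with Xist and level in the cells with Y-linked UMIs, while the Il7r ratios were 0.40 and 0.77. Of the 8 genes, 6 were called lower and 0 higher in the cells with Xist, where the rule called 12.9% of 5648 genes, 10.4% higher and 2.50% lower. In the cells with Y-linked UMIs 2 were called higher (Ccr7 and Il7r) and 0 lower, where it called 9.67% of 7319 genes, 3.40% higher and 6.27% lower. The difference between both kinds of cells was not tested. The labels do not state how many mice each heart library held, and age and sex mix cannot be told apart over all T cells.

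**Figure D5:**
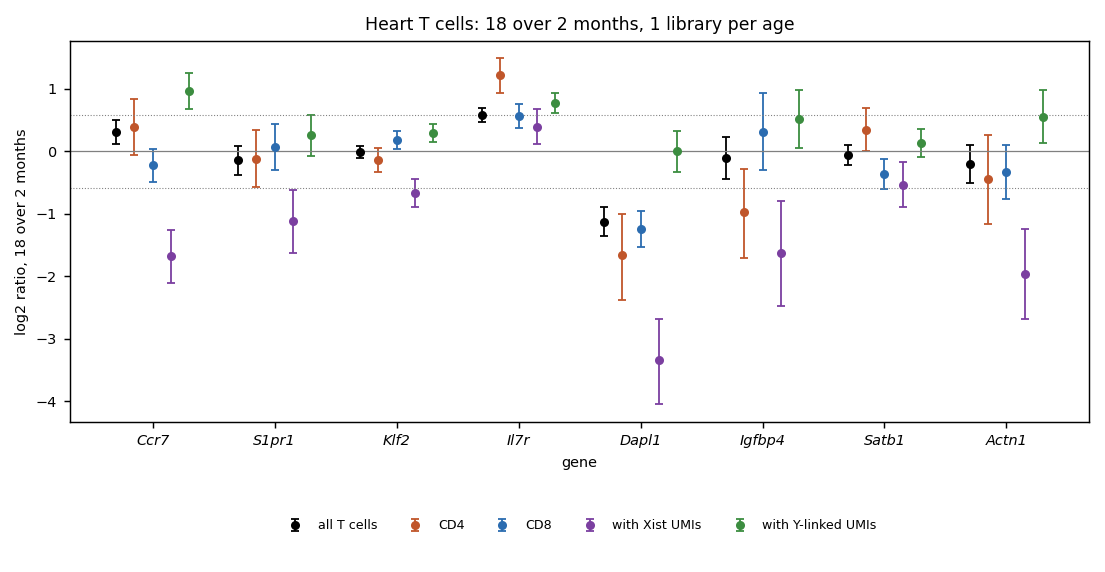
Log2 ratio of each gene (18 over 2 months, vertical axis) in all heart T cells (black), CD4 (orange), CD8 (blue), cells with Xist (purple) and cells with Y-linked UMIs (green), with 95% counting intervals and dotted lines at 1.5-fold. Dapl1 is below 0 in all T cells, CD4 and CD8, and at 0.0002 in the cells with Y-linked UMIs.

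Free RNA was estimated from 43 markers of other cell types at 4.15% of T cell UMIs at 2 months and 5.20% at 18 months. That share of the whole library came to 35.5% and 18.4% of the Igfbp4 level of T cells, a gene that fibroblasts express at 1473 and 1486 CPM, and to at most 7.07% of any other of the 8 genes. For Dapl1 the estimate was 0.121% and 0.378%. S1pr1 and Klf2 had higher levels in vessels than in T cells, at 747 and 1007 CPM and at 1474 and 2142 CPM in vascular endothelial cells. Actn1 was 760 and 357 CPM in endocardial cells and 547 and 527 CPM in smooth muscle. Ccr7 was 266 and 431 CPM in B cells, and Il7r reached 908 and 1106 CPM in group 2 innate lymphoid cells. Outside T cells, the highest Dapl1 level of a named class was 6.18 CPM, in dendritic cells at 18 months.

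In the hearts the effector and memory list had the most calls. Over all 9174 genes the same rule called 6.19% higher and 3.11% lower, and a single call in a list this short is near those shares. Of 20 effector and memory genes 13 were called higher at 18 months and 0 lower, with Gzma and Ccl4 the largest at 5.87 and 5.25 on the log2 scale, and Gzma rested on few UMIs at 2 months (3.09 CPM). Gzma is also a marker of natural killer cells, whose 6 markers summed to 187 CPM at 2 months and 383 CPM at 18 months in the T cells, with 0 of them at 0. The 5 neutrophil markers summed to 63.8 and 205 CPM, with 1 of them at 0 at 2 months, and the part of either in the result was not tested. Of 15 naive and central memory genes 1 was higher (Bcl2, 1.02) and 1 lower (Foxo1, -0.79), with a list median of 0.01 beside 0.03 over all genes. Of 14 measured IL-7 and S1P genes 2 were higher, Cish at 0.77 and the S1P lyase Sgpl1 at 0.71. Of 8 regulatory T cell genes 3 were lower, Foxp3 among them at 17.0 and 4.09 CPM. Of 16 genes of the dissociation stress response 3 were higher, with Atf3 at 1.37 and Hspa1a at 0.80. Of 8 follicular helper genes 3 were higher and 2 lower, and of 9 genes of residency and activation 2 were higher and 1 lower.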

How the data were processed

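The deposited matrices hold UMI counts per gene and cell, made by the authors with Cell Ranger 3.1.0 on mm10 (GRCm38), per the submitters' processing notes and the file headers. The deposited clonotype table also gives each clonotype's fraction of cells, which was not used, since clonotype sizes were counted within hashtags. Barcodes under 200 genes or over 15% mitochondrial UMIs were dropped. A lymph node hashtag needed 10 UMIs and a share of 0.75 of the hashtag UMIs, which left out barcodes with several hashtags. T cells had 2 or more CD3 UMIs and fewer than 2 B cell UMIs. Heart doublets were removed with Scrublet at an expected 8%. Cells were clustered with scanpy 1.11.5 (2000 variable genes, 30 components, 15 neighbours, Leiden resolution 1), leaving out the 8 genes. UMIs were summed per hashtag, lineage and class, sums of under 10 cells were left out, and edgeR 4.0.16 (R 4.3.3) fitted quasi-likelihood models with TMM factors, filterByExpr and hashtag as a block. Calls used a Benjamini-Hochberg adjusted p of 0.05. DESeq2 1.42.0 was an alternative. Single genes also had an exact two-sided sign-flip test on log2(CPM + 1), and the comparison of CD4 with CD8 effects added 0.5 UMIs. Hashtag was the block because each hashtag marks its own cells within 1 pooled library.

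On simulated counts the fits recovered 89%, 90%, 94% and 88% of 4-fold changes and 50%, 44%, 96% and 78% of 2-fold changes for CD4 clonotypes, CD8 clonotypes, CD8 against CD4 and Foxp3, over 6631, 7164, 8518 and 4829 genes. The simulation used a single fixed dispersion for all genes and a hashtag effect shared by both classes. Neither was estimated from these data, so the rates need not hold for the real counts. Heart intervals are exact conditional binomial 95% intervals and cover counting error only. The heart T class joined an alpha beta and a gamma delta cluster. A cluster with T and macrophage markers (153 and 206 cells at 2 and 18 months) was left out after seeing the data. So was a cluster led by Dntt (7 and 70 cells), with Trbc2 and Cd8a among its leading genes. The members and lists were chosen with earlier results of these data known. The text names all 8 members, up to 4 genes of a list (the 2 largest changes each way past the threshold) and genes among the 5 most alike in each lineage, some of which are not reported here. Other genes named beyond that were chosen after their values were seen. Hashtag UMIs were read from the antibody rows of the same matrices.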

Additional observations from a re-analysis of the deposited data

Results flagged for a closer look

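Dixon's test was run on 48 sets of hashtag values, and chance marks about 1 set in 20. Hashtag 7 stood far above the others in CD4 cells for Klf2 (903 CPM, the others 288 to 472) and Il7r (590 CPM, the others 148 to 317), and in CD8 cells for Klf2 (961 CPM, the others 610 to 743). In single CD4 clonotypes the same hashtag had 825 CPM of Il7r (others 142 to 282) and 909 CPM of Klf2 (others 281 to 469).

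Among expanded CD4 clonotypes hashtag 3, with 14 cells, had 82.6 CPM of Dapl1 and 41.3 CPM of Igfbp4, where the others reached 13.2 CPM for both. Expanded CD4 cells of all hashtags held 12 Dapl1 and 6 Igfbp4 UMIs, so these values rest on few counts. Among expanded CD8 clonotypes hashtag 4 had 211 CPM of Igfbp4 (others 0 to 77.2), and hashtag 3 had 232 CPM of S1pr1 (others 80.9 to 143). Both rested on 15 cells.

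In the hearts, the ratio of 18 over 2 months had opposite signs in cells with Xist and in cells with Y-linked UMIs for 4 of the 8 genes with both 95% counting intervals leaving out 0, a difference that was not tested. The log2 ratio was -1.68 and 0.97 for Ccr7, -0.67 and 0.30 for Klf2, -1.63 and 0.52 for Igfbp4, and -1.96 and 0.55 for Actn1. Of these 4, only Ccr7 passed the 1.5-fold rule in the cells with Y-linked UMIs. Il7r was higher at 18 months in both (0.40 and 0.77), and Dapl1 was level in the cells with Y-linked UMIs (0.0002).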

How the results depend on the processing

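The counts here are of the 8 genes called, and where they changed the cause was not tested. For CD4 clonotypes (2 in the report) the count was 1 with DESeq2, which gave 4 of the 8 no adjusted p, 5 with no filter, 4 with lineage from clusters, 5 with the deposited cell filter, and 1 without cells with 2 or more beta chains or without clonotypes of 10 or more cells. It was 0 without the replicate block of hashtags, 0 within the cluster with most expanded cells (2 tested) and 0 after thinning (4 tested), and 0 to 1 leaving out each hashtag. For CD8 clonotypes (6) it was 3 with DESeq2, 2 without the replicate block and 0 at 3 or more cells. It was 1 after thinning (7 tested) and 4 to 7 leaving out each hashtag. Within the cluster with most expanded cells it was 0, but only 3 were tested, Klf2 and S1pr1 among them. For CD8 against CD4 (7) it was 5 without the block and 7 to 7 leaving out each hashtag. For Foxp3 (6) it was 4 with DESeq2, 0 without the block, 2 after thinning (2 tested) and 4 to 7 leaving out each hashtag. For the hearts (2) it was 1 with a CD3 gate, TMM factors, free RNA subtracted, and with either excluded cluster added, all of them Dapl1, and 6 in cells with Xist. It was 1 with hashtag 12 against 10, Actn1 lower (-0.67), and 3 with hashtag 11 against 10, with Dapl1, Igfbp4 and Actn1 lower and Il7r not called.

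Signs turned for CD8 S1pr1 (0.43) and Klf2 (0.18) within the top cluster and for Klf2 at 3 or more cells (0.0077). They turned for Igfbp4 between lineages without hashtag 2 (0.0044, where leaving out each hashtag gave -0.184 to 0.0044), with lineage from clusters (0.0639), the deposited filter (0.0595) and thinning (0.35), and for Igfbp4 with Foxp3 under the deposited filter (0.0368). In the hearts values called in the report or in the alternative turned for Ccr7 in cells with Xist (-1.68) and for Dapl1 in cells with Y-linked UMIs (0.0002). Values called in neither turned for Actn1 (0.55), Igfbp4 (0.52) and Klf2 (0.30) in cells with Y-linked UMIs. They also turned for S1pr1 (0.32) with hashtag 12 against 10, and for Satb1 (0.38) and Ccr7 (-0.03) with the Dntt cluster, among other settings. Over all genes the alternatives called 0 to 174 (7 in the report) for CD4 clonotypes, 3 to 219 (121) for CD8, 999 to 3824 (2916) between lineages and 70 to 561 (266) for Foxp3. Few expanded cells outside hashtags 7 and 8 limit the clonotype comparisons, and 1 library per age limits the hearts. The settings on clusters, chains, large clonotypes and sex-linked UMIs were chosen after seeing the data.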

Other observations

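Cells without a paired receptor had their own levels. In CD8 cells without one (787 cells, median 2049 UMIs) Dapl1 was 101 CPM and Il7r 722 CPM, and in CD4 cells without one (418 cells) Il7r was 519 CPM.

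The 2 clusters left out of the heart T cells had distinct levels. The cluster led by Dntt, a gene of developing lymphocytes, also had Trbc2 and Cd8a among its leading genes. It had Satb1 at 791 and 807 CPM at 2 and 18 months (7 and 70 cells), with Ccr7 at 0 and 30.2 CPM. The cluster with T and macrophage markers (153 and 206 cells) had Dapl1 at 53.4 and 30.4 CPM and Il7r at 198 and 272 CPM.

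The hashtags cannot be set to ages here, and their values are given as values. In both lineages hashtags 7 and 8 held the 2 lowest levels of Ccr7, Dapl1 and Igfbp4 and the 2 lowest of Actn1, and the 2 highest of Il7r. In CD8 cells Igfbp4 was 12.9 and 19.3 CPM there, and Actn1 48.5 and 57.5 CPM. Satb1 did not follow this in CD8 cells, where hashtag 8 had 149 CPM.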
